A study of Mus musculus with 2 samples.

Results

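The secreted BMP antagonists Grem1, Nog, Chrd, Chrdl1, Chrdl2, Fst, Fstl1, Bmper and Nbl1 were followed across the stromal cells of grafted mouse intestine. They were chosen by gene symbol, 9 of the 28692 features in the count matrices, and all 9 had UMIs in both libraries. The study grafted E12.5 small intestine (SI) or large intestine (LI) from EYFP embryos (strain C57BL/6 by the labels, with C57BL/6Nrj dams) under the renal capsule of wild-type adults and recovered the tissue 4 weeks later. Cells that were EYFP+ and Itgb1+, and negative for CD45, Ter119, BP3, CD31, EpCAM and L1CAM, were sorted for droplet single-cell RNA-seq. There was 1 library of each graft. Both groups shared the kind of host, the strain label, the site and the sort, and by the labels they differed in the segment grafted. Whether they shared host animals or embryos was not given in the sources used here. The EYFP label marks donor cells of any lineage, and the sort was meant to leave host stroma out. The LI library came from 3 pooled grafts. The number of grafts behind the SI library and the 10x kit (3′ or 5′) used for each were not given in the sources used here. With 1 library of each kind there were no biological replicates, no test was possible, and all intervals are 95% intervals for counting error only.

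Bone morphogenetic proteins (BMPs) are secreted ligands of the TGF-beta family that act through receptor kinases on the cell surface and SMAD proteins in the nucleus. In the gut, BMP signalling is strong at the villus tip or the upper crypt, where it goes with epithelial differentiation, and weak at the crypt base, where stromal antagonists bind the ligands and keep them from their receptors. The antagonists belong to several structural families. Gremlin 1 (Grem1) and Nbl1 (also called Dan) are cystine-knot proteins of the DAN family. Noggin (Nog) is a compact dimer that masks the receptor-binding faces of BMPs. Chordin (Chrd), the chordin-like proteins Chrdl1 and Chrdl2 and BMP-binding endothelial regulator (Bmper) carry cysteine-rich chordin domains. Follistatin (Fst) binds activins most tightly, and follistatin-like 1 (Fstl1) shares a follistatin domain with it.

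Of the deposited barcodes, 9873 of 11568 LI and 7910 of 9631 SI barcodes passed the limits of 500 genes and 10% mitochondrial UMIs, with medians of 5288 and 5682 UMIs and totals of 61023220 and 51656233 UMIs. The segment labels held: posterior Hox genes summed to 292 UMIs per 1000000 (CPM) in the LI and 7.34 CPM in the SI library. A marker gate placed 9471 LI and 7327 SI cells in 10 stromal classes, which were 6 fibroblast (FB) classes (PDGFRAhi, CD81, Pi16, Fgfr2, CD90/Igfbp5 and the remainder, other FB), mesothelial cells, pericytes, interstitial cells of Cajal (ICC) and smooth muscle cells (SMC). Fibroblasts made up 7568 and 5616 of them. The gate is a cut through continuous scores: 33.8% of LI and 29.7% of SI cells lay near a limit, and 61.8% and 59.4% of the cells gated to a named class sat in a cluster whose summed markers gave the same class. Other classes' markers were present within classes: LI PDGFRAhi cells had a median of 18.4 UMIs per 10000 of their own markers and 97.6 of the Fgfr2 markers, and Pi16 cells had 27.3 (LI) and 41.4 (SI) of the CD81 markers. No LI cluster had the Pi16 and no SI cluster the CD90/Igfbp5 markers in the lead, and the mesothelial class held only 39 and 27 cells. Markers of cells outside the sort summed to at most 15.3 CPM per list over the gated stromal cells, and 26 barcode sequences occurred in both libraries.

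Male and female cells were unevenly spread. Cells were called female from Xist and male from the Y-linked Ddx3y, Eif2s3y, Kdm5d or Uty, and 10.0% of called LI cells and 30.6% of called SI cells were male. In the LI library 86.8% of the male cells lay in 3 clusters, which together held 1429 cells. Sex, embryo and grafted piece cannot be told apart, donor or host origin of the sexed cells was not tested, and the graft comparisons are therefore also given for each sex.

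Grem1 (ENSMUSG00000074934, chr2:113746164-113758646, minus strand) was among the antagonists spread over most stromal classes, and PDGFRAhi FB were at or near the foot of its order in both grafts. In the LI graft it was highest in CD90/Igfbp5 FB, at 715 CPM (690.4 to 741), followed by CD81 FB at 599 CPM (580.0 to 619). Of the 616 LI cells gated as CD90/Igfbp5 FB, 116 sat in the cluster led by Areg and Ereg, and those had 2502 CPM (2395 to 2612). Among female LI cells this order was reversed, at 294 CPM in CD90/Igfbp5 and 459 CPM in CD81 FB. In the SI graft it was highest in CD81 FB, at 1187 CPM (1161 to 1214), followed by other FB at 903 CPM (889 to 916) and SMC at 856 CPM (832 to 880.4). PDGFRAhi FB held 60.1 CPM (51.0 to 70.4) in the LI and 154 CPM (139 to 170.2) in the SI graft. The intervals of the highest and lowest classes were far apart in both libraries. At a common depth of 2000 UMIs, Grem1 was detected in 5.78% of LI and 10.7% of SI PDGFRAhi cells, and in 41.1% and 66.5% of CD81 cells (9.11%, 16.1%, 58.2% and 81.8% without thinning). Kidney tubule cells, which should lack the gene, had no UMI among 7 LI cells (an allowance of up to 45.1 CPM) and 4.91 CPM among 15 SI cells, at median depths of 11457 and 14720.0 UMIs. The 50 SI cells gated as epithelial, at a median of 9729 UMIs, had Grem1 in 8.51% of 47 cells at 2000 UMIs. Clusters with immune markers in the lead had more Grem1 than PDGFRAhi FB, at 306 CPM (254 to 365) in 70 LI cells and 524 CPM (447 to 611) in 61 SI cells. These negative cell types were few and unlike each other, so the background under the PDGFRAhi shares and the other low levels was not resolved.

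Among the fibroblasts, 2 classes were intermediate. Fgfr2 FB had 148 and Pi16 FB 231 CPM of Grem1 in the LI graft. The same classes had 450.1 and 296 CPM in the SI graft. In pericytes the gate and the clusters disagreed. LI pericytes had 538 CPM by the gate but 63.3 CPM among the 476 cells that the pericyte cluster also held, while SI pericytes had 106 and 67.2 CPM. Of the 657 LI cells gated as pericytes, 75 sat in the cluster led by Areg and Ereg, in which Grem1 reached 2352 CPM (2309 to 2396). Restricting PDGFRAhi FB in the same way lowered Grem1 further, to 21.2 CPM in the LI and 55.4 CPM in the SI graft, and SMC kept 559.6 and 1006 CPM.

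Nbl1 (ENSMUSG00000041120, chr4:139082284-139092993, minus strand) was highest in the class where fibroblast Grem1 was lowest. PDGFRAhi FB had 1368 CPM (1323 to 1414) of Nbl1 (LI) and 1754 CPM (1701 to 1807) (SI), the highest class in both. Pericytes had the lowest LI level, 265 CPM (248 to 283), and the lowest SI level, 203 CPM (189 to 217), and SMC were also low, at 319.7 and 276 CPM. The gene was detected in 76.7% of LI and 82.8% of SI PDGFRAhi cells at 2000 UMIs, against 35.3% and 30.2% of pericytes. Among the other classes, ICC had 845 and Pi16 FB 748 CPM in the LI graft, and 568 and 701 CPM in the SI graft. Clusters drawn without the antagonists among their variable genes gave the same picture, since the clusters led by Sox6 had 1271 (LI) and 2146 CPM (SI) of Nbl1 beside 33.2 and 50.6 CPM of Grem1. PDGFRAhi cells were not the only site of high Nbl1: the LI cluster led by Myoc and Lpl had 1172 CPM and the SI cluster led by Wif1 had 1332 CPM. The per-library levels and their counting intervals are drawn for all 9 antagonists in the plot of levels by class.

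**Figure D1:**
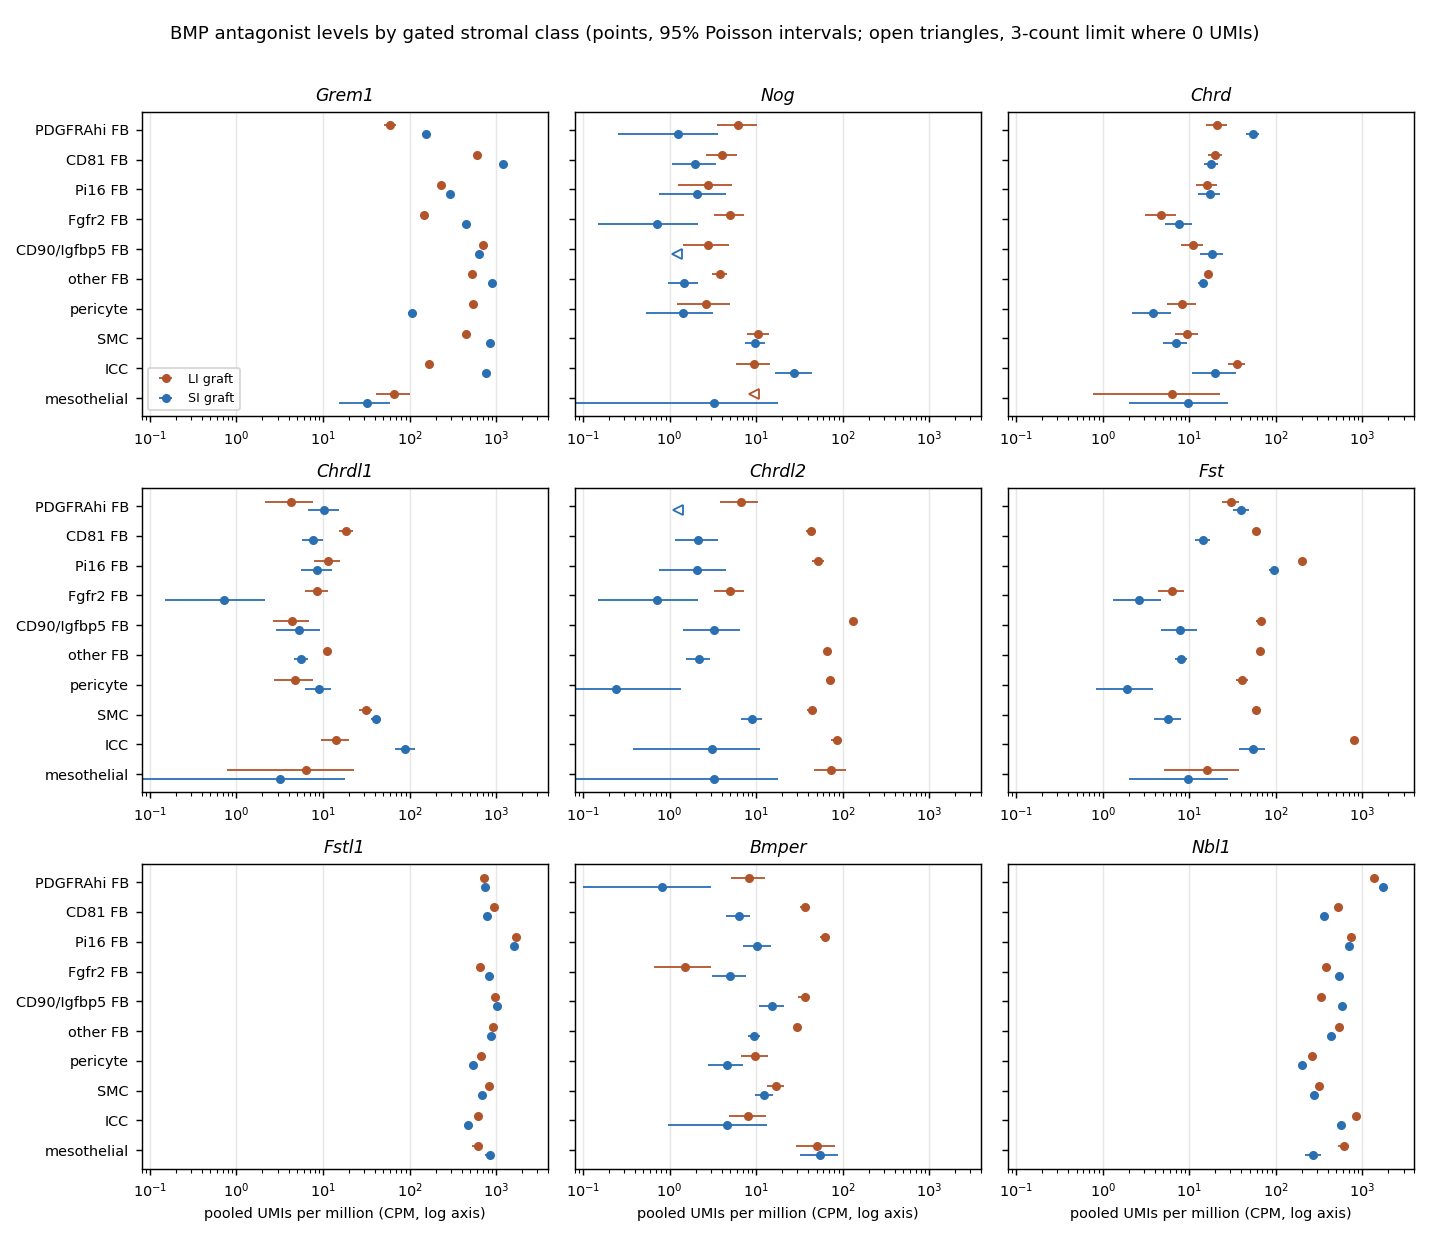
Pooled level of each antagonist in CPM (log axis) in the 10 gated stromal classes, with the LI graft in brown and the SI graft in blue; points carry 95% Poisson intervals and open triangles mark the limit of 3 counts where no UMI was seen. Nbl1 peaked in PDGFRAhi FB (1368 and 1754 CPM), where Grem1 was 60.1 and 154 CPM, and in each class the LI point of Chrdl2 lay above its SI point or limit.

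The sequences before the start sites of Grem1 and Nbl1 are shown because these DAN-family genes had opposite levels in PDGFRAhi FB, though both were low in SI pericytes. The 250 bases upstream of each RefSeq start (mouse GRCm38.p6) are printed 5′ to 3′ on the gene's own strand, in lower case with matches to the searched motifs in capitals. The Grem1 sequence is chr2:113758649-113758898 on the minus strand and the Nbl1 sequence chr4:139092971-139093220 on the minus strand.
Grem1: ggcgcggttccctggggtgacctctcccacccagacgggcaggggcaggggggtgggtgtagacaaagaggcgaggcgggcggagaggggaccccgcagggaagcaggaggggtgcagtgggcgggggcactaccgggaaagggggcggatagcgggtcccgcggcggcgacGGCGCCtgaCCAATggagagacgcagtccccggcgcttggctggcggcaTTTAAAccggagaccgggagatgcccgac
Nbl1: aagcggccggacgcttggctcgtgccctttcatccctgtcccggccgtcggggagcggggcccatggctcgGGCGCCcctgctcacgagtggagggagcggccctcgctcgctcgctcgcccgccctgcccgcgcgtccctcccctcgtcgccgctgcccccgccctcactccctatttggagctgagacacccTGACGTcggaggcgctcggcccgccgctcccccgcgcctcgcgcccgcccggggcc
In the Grem1 sequence TTTAAA began 29 bases, CCAAT 69 bases and GGCGCC 78 bases before the start. In the Nbl1 sequence TGACGT began 56 bases and GGCGCC 179 bases before it. Of 32851 upstream sequences of this length, 12.1% held TTTAAA, 33.8% CCAAT, 9.59% GGCGCC, 6.47% TGACGT and 12.4% TATAAA, counting both strands. The 5 motifs do not overlap each other in these windows and were chosen after the sequences had been seen, so a match is a description of the letters. Both windows were rich in G and C, at 72.0% for Grem1 and 77.6% for Nbl1 against a median of 52.4%. The table matched 5 of the 9 antagonists: Chrd held GGCGCC 203 bases before its start, and no searched motif occurred in the windows of Fstl1 and Bmper. Nog, Chrdl1, Chrdl2 and Fst had no entry.

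Chrdl2 (ENSMUSG00000030732, chr7:100006172-100034728, plus strand), a chordin-like BMP binder, had the largest LI over SI ratio of the antagonists over all fibroblasts, though not over female fibroblasts alone. LI CD90/Igfbp5 FB had 132 CPM (122 to 144), LI ICC 85.1 CPM and LI other FB 65.5 CPM, while LI PDGFRAhi and Fgfr2 FB had 6.63 and 4.93 CPM. The LI ICC level rested on the cluster led by Lcn2, Hand1 and Fst, at 493 CPM (449 to 541), whereas the Kit-led cluster had 2.17 CPM (0.262 to 7.82). In the SI graft the highest class was SMC at 8.93 CPM (6.63 to 11.8), and no UMI was counted in PDGFRAhi FB, which allows up to 1.24 CPM. Its share of positive LI cells at 2000 UMIs ran from 0.222% of PDGFRAhi FB to 14.0% of CD90/Igfbp5 FB, leaving aside the 39 mesothelial cells. In the SI graft no class exceeded 0.909%.

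Chrdl1 (ENSMUSG00000031283, chrX:143285674-143394262, minus strand) was higher in smooth muscle than in fibroblasts of both libraries, and was not confined to it. LI SMC had 31.2 CPM (26.4 to 36.8) and SI SMC 41.1 CPM (35.9 to 46.7), against 10.9 CPM (10.0 to 11.9) and 5.95 CPM (5.19 to 6.79) over all fibroblasts. The SI ICC class read 89.4 CPM, but only 38 of its 116 cells sat in the Kit-led cluster, and those had 5.27 CPM. The 99 cells of the SI cluster led by Actg2 and Cnn1 had 155 CPM (130.2 to 184), and the LI cluster led by Cnn1 and Actg2 had 53.1 CPM (44.2 to 63.2). These were the highest cluster levels of each library, but larger clusters held more of the UMIs: the LI cluster led by Fmo2 and Lsamp had 30.3 CPM and 27.7% of the LI Chrdl1 UMIs against 16.7% in the Cnn1 cluster, and the SI cluster led by Vtn and Higd1b had 33.0 CPM and 23.0% against 22.2% in the Actg2 cluster. Another SI cluster with smooth muscle markers in the lead, of 531 cells, had 5.66 CPM.

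Chrd (ENSMUSG00000006958, chr16:20733127-20742384, plus strand) was low and changed its leading class with the segment. It was highest in ICC in the LI graft, at 35.8 CPM (28.3 to 44.6), and in PDGFRAhi FB in the SI graft, at 53.9 CPM (45.0 to 64.0). LI PDGFRAhi FB had 20.7 CPM (15.5 to 27.0). Its neighbour on the opposite strand, Thpo, overlaps the Chrd annotation, and whether counting used strand was not given in the sources used here. Bmper (ENSMUSG00000031963, chr9:23223076-23485200, plus strand) was highest in Pi16 FB in the LI graft, at 62.6 CPM (54.4 to 71.8), and lowest in Fgfr2 FB, at 1.52 CPM (0.656 to 2.99). In the SI graft the 27 mesothelial cells had the most Bmper, 54.8 CPM (31.9 to 87.7), and Pi16 FB had 10.3 CPM (6.98 to 14.8). The LI cluster of 423 cells, led by Cthrc1, Sfrp4 and Prg4, held 47.9% of all LI Bmper UMIs at 134 CPM (124 to 143).

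Nog (ENSMUSG00000048616, chr11:89300638-89302332, minus strand) was scarce, with 266 UMIs over all gated LI and 132 over all gated SI stromal cells. SMC had 10.6 CPM (7.81 to 14.0) in the LI and 9.82 CPM (7.40 to 12.8) in the SI graft, and fibroblasts as a whole had 3.92 and 1.41 CPM. SI CD90/Igfbp5 FB had no UMI, which allows up to 1.24 CPM. The SI cluster led by Actg2 and Cnn1, 99 cells, held 39.9% of the SI Nog UMIs at 65.6 CPM (49.7 to 85.0), and the matching LI cluster had 22.3 CPM (16.7 to 29.2). The SI ICC class read 27.8 CPM, but 5.27 CPM in the 38 cells that the Kit-led cluster also held.

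Fst (ENSMUSG00000021765, chr13:114452290-114458951, minus strand) was concentrated in few cells. LI ICC had 802 CPM (765 to 841), LI Pi16 FB 203 CPM (187 to 219) and LI Fgfr2 FB 6.26 CPM (4.31 to 8.80). SI Pi16 FB had 95.6 CPM (84.6 to 107), SI PDGFRAhi FB 39.8 CPM (32.2 to 48.6) and SI pericytes 1.92 CPM (0.830 to 3.79). Pi16 FB were thus above most classes in both grafts, and PDGFRAhi FB stood above the other stromal cells in the SI but below them in the LI graft. The LI ICC value came from different groups of cells: the Kit-led cluster of 228 cells had 428 CPM (386 to 472), and a cluster of 147 cells led by Lcn2, Hand1 and Fst itself, 93.2% of whose sex-called cells were male, had 1593 CPM (1512 to 1676). A further cluster of 65 cells with Kit and Ano1 among its leading genes had 6.64 CPM (0.804 to 24.0), so high Fst was not shared by all Kit-marked LI cells. SI ICC had 54.0 CPM by the gate, but the 38 cells in the Kit-led SI cluster had no UMI, which allows up to 15.8 CPM. Fst overlaps the antisense gene Gm47040, which is not a feature of the count matrices.

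Fstl1 (ENSMUSG00000022816, chr16:37776873-37836514, plus strand) was the most even antagonist. It was highest in Pi16 FB in both grafts, at 1687 CPM (1643 to 1732) and 1603 CPM (1557 to 1649), and its highest class exceeded its lowest by 2.76-fold (LI) and 3.40-fold (SI), against 11.9- and 36.9-fold for Grem1. At 2000 UMIs it was detected in 74.2% of LI and 77.5% of SI fibroblasts. Cells gated as kidney tubule still had 90.3 and 167 CPM, a level seen outside the stroma. Its highest cluster was the LI cluster led by Cthrc1, Sfrp4 and Prg4, at 2027 CPM (1991 to 2064).

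The order of classes was shared for few antagonists. Of the 8 antagonists with at least 10 CPM in a class of both libraries (Chrdl2 did not reach it in the SI graft), 2 had the same highest class in both grafts, Fstl1 in Pi16 FB and Nbl1 in PDGFRAhi FB. Neighbouring classes in the order often had overlapping intervals: 3 of 9 neighbouring pairs in the LI and 1 in the SI graft for Grem1, 3 and 4 for Nbl1, and 9 and 8 for Nog. For Chrd, whose highest classes differed between grafts, ICC and PDGFRAhi FB came first and second in both orders, reversed.

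Each class was then set against all other gated stromal cells of its library, and a gene was counted as higher or lower at a fold of 2 or more with at least 10 CPM on either side. In PDGFRAhi FB, 1 antagonist was higher and 5 were lower in the LI graft, where 4.27% and 4.75% of all genes were, and 3 were higher and 1 was lower in the SI graft, where 5.55% and 5.68% of all genes were. Nbl1 was higher in both, with log2 ratios of 1.45 (1.40 to 1.50) and 2.06 (2.01 to 2.11), and Grem1 lower in both, with -2.95 (-3.18 to -2.72) and -2.30 (-2.45 to -2.15). The others split by graft: Chrdl1, Chrdl2, Fst and Bmper were lower in LI PDGFRAhi FB, and Chrd and Fst were higher in SI PDGFRAhi FB. The median log2 ratio of the antagonists that reached 10 CPM was -1.48 in the LI and 0.65 in the SI graft, against 0.11 and 0.19 over all genes.

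In LI Fgfr2 FB, Grem1, Chrd, Chrdl2, Fst and Bmper were lower by at least 2-fold and none was higher (4.85% of all genes lower and 2.72% higher), with log2 ratios from -1.59 for Chrd to -3.80 for Fst. In SI Fgfr2 FB only Chrdl1 and Fst passed, both lower (4.07% of all genes lower and 2.3% higher). Pericytes had 4 lower antagonists in each graft and none higher, where 5.57% (LI) and 8.55% (SI) of all genes were lower and 6.73% and 7.47% higher, and Fst and Nbl1 were lower in both. In Pi16 FB, Fst was higher in both grafts, with log2 ratios of 1.25 (1.13 to 1.36) and 3.13 (2.92 to 3.34), and Grem1 lower in both. Bmper (LI) and Fstl1 (SI) were the remaining higher genes of that class, in which 2.82% and 3% of all genes were higher and 5.9% and 6.8% lower. The Fstl1 ratios were nearly equal, at 0.989 (LI) and 1.003 (SI), on either side of the fold limit. In SMC, Chrdl1 was higher in both grafts, with 1.47 (1.21 to 1.72) and 2.30 (2.07 to 2.54), where 3.8% and 5.72% of all genes were higher. LI SMC also had higher Nog and SI SMC had lower Chrd and Fst, against 2.51% and 5.53% of all genes lower. Nog was raised in SMC of both grafts, by 1.20 (LI) and 1.93 (SI) on the log2 scale. It was left uncounted in SI SMC because neither 9.82 CPM (SMC) nor 1.84 CPM (the rest) reached the limit of 10 CPM. In ICC, Chrd and Fst were higher and Grem1 and Bmper lower in the LI graft, and Nog, Chrdl1 and Fst were higher in the SI graft by the gate, though not in the 38 SI cells that the Kit-led cluster also held. Of all genes, 7.51% (LI) and 8.45% (SI) were higher in ICC and 5.64% and 5.95% lower. The ICC log2 ratio of Fst was 3.64 (3.56 to 3.72) in the LI and 1.81 (1.29 to 2.29) in the SI graft, by the gate. In CD90/Igfbp5 FB, Chrdl1 was lower in both grafts (1.82% and 1.79% of all genes lower) and Chrdl2 higher in the LI graft (0.439% higher). In other FB, Chrdl1 and Fst were lower in the SI graft (2.59% of all genes lower). No antagonist passed in CD81 FB of either graft, where 0.463% and 0.931% of all genes were higher and 2.88% and 5.03% lower. Grem1 was called higher in none of these classes.

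The ligands that these proteins bind were also unevenly spread. Of the 13 BMP, GDF and activin ligand genes listed, 8 reached 10 CPM in PDGFRAhi FB or the rest, and 6 were at least 2-fold higher in LI and 5 in SI PDGFRAhi FB, where 4.27% and 5.55% of all genes were. Gdf10 was the only ligand gene called lower, in the LI graft (12.1 against 42.7 CPM). The 8 genes had medians of 2.49 and 2.31 on the log2 scale. Bmp3, Bmp7, Bmp5, Inhba (the activin A subunit) and Bmp2 were higher in both. Bmp7 had 211 CPM in LI PDGFRAhi FB against 11.3 CPM in the other stromal cells, and 362 against 16.7 CPM in the SI graft. Bmp4 had 572 against 249.6 CPM in the LI and 364 against 184 CPM in the SI graft, where it missed the limit. Bmp4 was higher in Fgfr2 FB of both grafts, with 513 CPM in the SI class. PDGFRAhi FB thus combined high Bmp7, Bmp5 and Nbl1 with low Grem1.

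**Figure D2:**
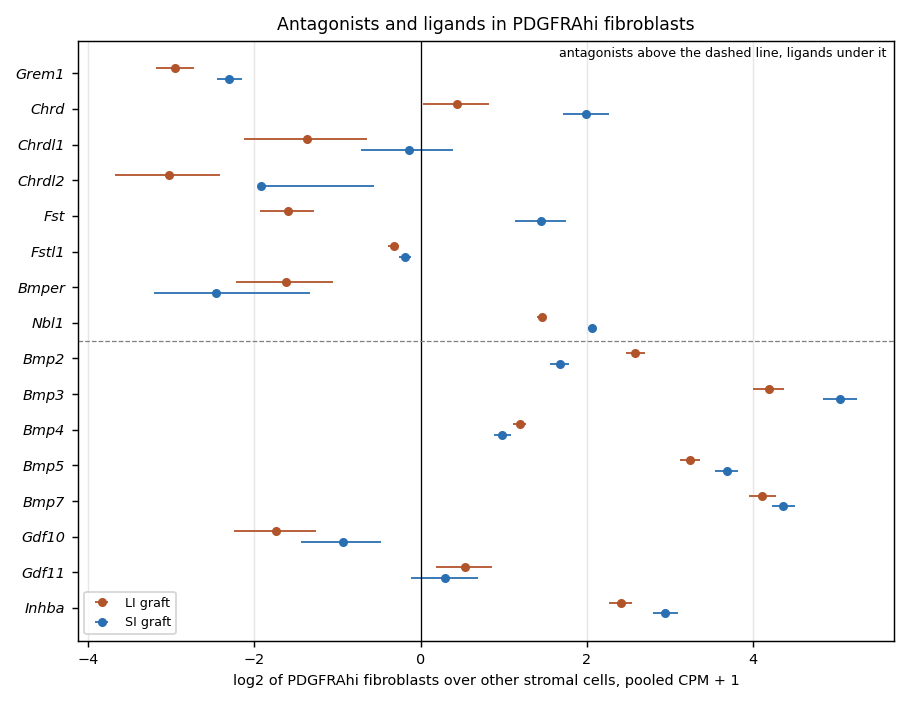
log2 ratio of pooled CPM (plus 1) in PDGFRAhi FB over all other gated stromal cells for the antagonists (above the dashed line) and ligand genes (under it), LI graft in brown and SI graft in blue, with 95% binomial intervals. Nbl1 stood at 1.45 and 2.06 beside Bmp7 at 4.11 and 4.36, and Grem1 at -2.95 and -2.30. Chrdl2 had no UMI in SI PDGFRAhi FB, so its SI point depends on the pseudocount.

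Further secreted modulators were also uneven across classes. Twsg1, a chordin partner, was higher in PDGFRAhi FB, with 198 and 252 CPM. Crim1, a membrane protein with chordin-type repeats, was higher in pericytes and SMC of both grafts. None of the receptor genes that reached 10 CPM (9 of 13 in the LI and 8 in the SI graft) was higher in PDGFRAhi FB, and Rgmb, a BMP co-receptor, was lower in the LI class (-1.01 log2). Of the BMP response genes that reached 10 CPM, 2 of 7 (LI) and 3 of 6 (SI) were higher in PDGFRAhi FB, and 2 and 1 were lower. Of all genes, 4.27% and 5.55% were higher and 4.75% and 5.68% lower. Id1 and Id2 were higher and Id4 was lower in PDGFRAhi FB of both grafts. Id1 had 311 and 212 CPM there against 98.2 and 56.2 CPM in the rest. Id1 was also higher in pericytes (1.45 and 1.84), the class lowest in Nbl1.

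The grafts were compared over all gated fibroblasts. Chrdl2, Fst and Bmper were at least 2-fold higher in the LI graft, no antagonist was 2-fold higher in the SI graft, and 1.91% and 1.61% of all genes were (3.53% in either direction). Chrdl2 had 57.9 CPM (55.8 to 60.1) against 1.93 CPM (1.51 to 2.43), a log2 ratio of 4.33 (4.09 to 4.56). Fst had 65.7 CPM (63.4 to 68.0) against 17.6 CPM (16.2 to 19.0), a log2 ratio of 1.85 (1.73 to 1.96). Bmper had 29.2 CPM (27.7 to 30.7) against 8.29 CPM (7.38 to 9.27), a log2 ratio of 1.70 (1.54 to 1.86). These intervals did not overlap between libraries, but a single library of each graft leaves no estimate of the spread between grafts.

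The other antagonists differed less. Grem1 had 463 CPM (457 to 469.6) in LI and 787 CPM (778 to 796) in SI fibroblasts, 1.70-fold higher in the SI graft, with a log2 ratio of -0.76 (-0.79 to -0.74). Chrdl1 had 10.9 and 5.95 CPM, a log2 ratio of 0.78 (0.58 to 0.98). Chrd had 15.5 and 17.3 CPM, with -0.15 (-0.30 to -0.006). Fstl1, with a log2 ratio of 0.034 (0.013 to 0.054), and Nbl1, with 0.026 (-0.00064 to 0.052), were nearly level. Over the 9 classes with at least 50 cells in both libraries, Chrdl2 was higher in the LI graft in all 7 classes in which it reached 10 CPM, and Fst in 7 of 8 with the remaining class, PDGFRAhi FB, unresolved at -0.38 (-0.81 to 0.058). Among PDGFRAhi cells whose gate and cluster agreed, Fst was higher in the SI graft, at 59.6 against 7.25 CPM, a ratio of -2.88 (-3.68 to -2.12). Grem1 was higher in the SI graft in 7 of 9 classes and higher in the LI graft in CD90/Igfbp5 FB and pericytes, by the gate. Of the BMP response genes, Id1 was at least 2-fold higher in LI fibroblasts, and 0 of 8 ligand and 0 of 9 receptor genes passed in either direction.

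The LI over SI ratios differed between female and male cells. Over female fibroblasts alone, Grem1 was 283 CPM (LI) and 809 CPM (SI), with a log2 ratio of -1.51 (-1.55 to -1.47). Over male fibroblasts it was 1030.1 and 764 CPM, a ratio of 0.43 (0.38 to 0.48), so the order of the grafts turned. Chrd turned in the same way, from -0.41 (-0.60 to -0.22) in female to 0.60 (0.29 to 0.91) in male fibroblasts. Chrdl2 kept its direction but not its size: LI male fibroblasts had 249 CPM and LI female fibroblasts 8.21 CPM, against 1.78 and 1.81 CPM in the SI graft. Fst was higher in the LI graft in either sex, with log2 ratios of 2.33 (2.13 to 2.53) in female and 1.98 (1.80 to 2.17) in male fibroblasts, and so was Bmper, with 1.99 (1.75 to 2.24) and 1.59 (1.29 to 1.88).

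**Figure D3:**
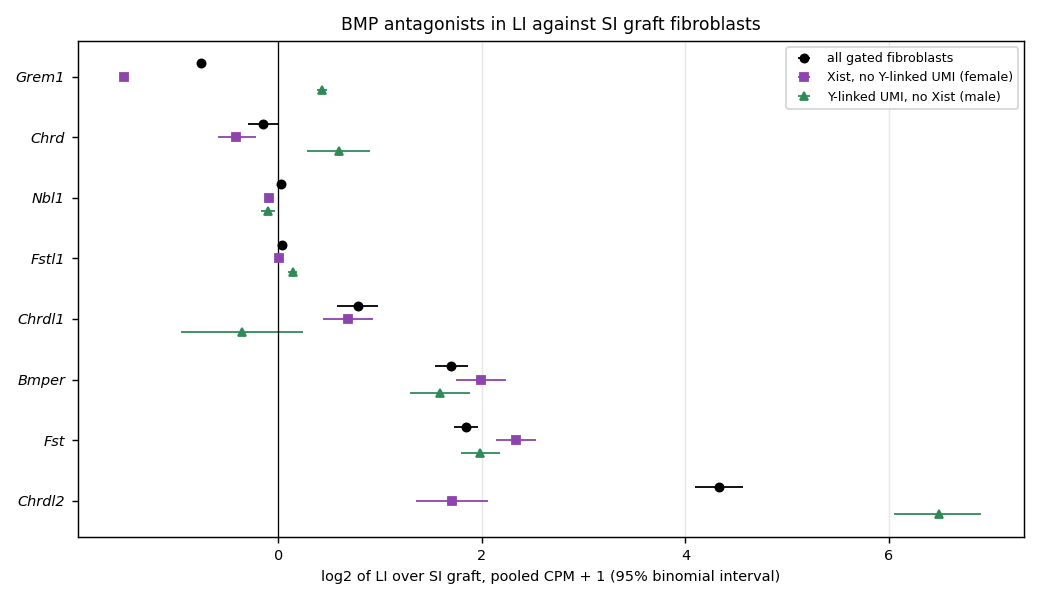
log2 ratio of pooled CPM (plus 1) in LI over SI fibroblasts for the 8 antagonists at 10 CPM or more, over all gated fibroblasts (black circles), female cells (purple squares) and male cells (green triangles), with 95% binomial intervals. Grem1 moved from -1.51 in female to 0.43 in male cells and Chrdl2 from 1.71 to 6.49, while Fst and Bmper stayed above 0 in each.

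Within the LI graft, the male-rich cells were 3 clusters, led by Areg and Ereg (654 cells), by Ctla2a, Fgfbp1 and Tac2 with H2-Ab1 and Cd74 among its leading genes (628 cells) and by Lcn2, Hand1 and Fst (147 cells). Of their cells with a sex call, 83.3%, 90.6% and 93.2% were male, and 40.5%, 35.7% and 40.1% of their cells had no call, against 10.3% of all LI cells. No other LI cluster exceeded 9.09% male among called cells. The 3 clusters were 14.5% of the LI cells and held 88.0% of the Chrdl2, 54.0% of the Grem1 and 50.7% of the Fst UMIs. Chrdl2 was at 249.7 CPM inside and 9.02 CPM outside them, and Grem1 at 1162 and 262 CPM. Grem1 was unequal among the 3, at 2352, 336 and 1327 CPM in the order named, whereas Chrdl2 was high in each, at 245, 221 and 493 CPM. Chrdl1, an X-linked gene, and Nbl1 were lower inside as a whole, with 4.85 against 14.3 CPM and 389 against 568 CPM, but not in the Lcn2 cluster, which had 15.2 and 591 CPM. Whether these cells came from a single male embryo, graft or host was not tested.

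The SI graft had 1 cluster with a male share in this range. The 478-cell cluster led by Cd74 and H2-Ab1 was 86.3% male among called cells (29.7% had no call) and had 1634 CPM of Grem1 against 615 CPM outside, but 1.36 CPM of Chrdl2 and 7.72 CPM of Fst. Over all SI fibroblasts, male and female cells had 764 and 809 CPM of Grem1. Fst was higher in male fibroblasts of both grafts (114 against 53.6 CPM and 28.1 against 9.83 CPM), and Nbl1 lower in both (401 against 609.6 CPM and 431 against 650.1 CPM). The male share of the fibroblast classes ran from 0.768% (Fgfr2 FB) to 26.8% (CD90/Igfbp5 FB) in the LI graft. Among female LI cells the Grem1 order of classes changed: CD81 FB came first, followed by SMC at 349 CPM and other FB at 333 CPM, ahead of CD90/Igfbp5 FB. For Chrdl2, CD90/Igfbp5 FB had 20.4 CPM among female cells, the highest class with at least 50 cells, and 269 CPM among male cells, where ICC had 301 CPM.

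**Figure D4:**
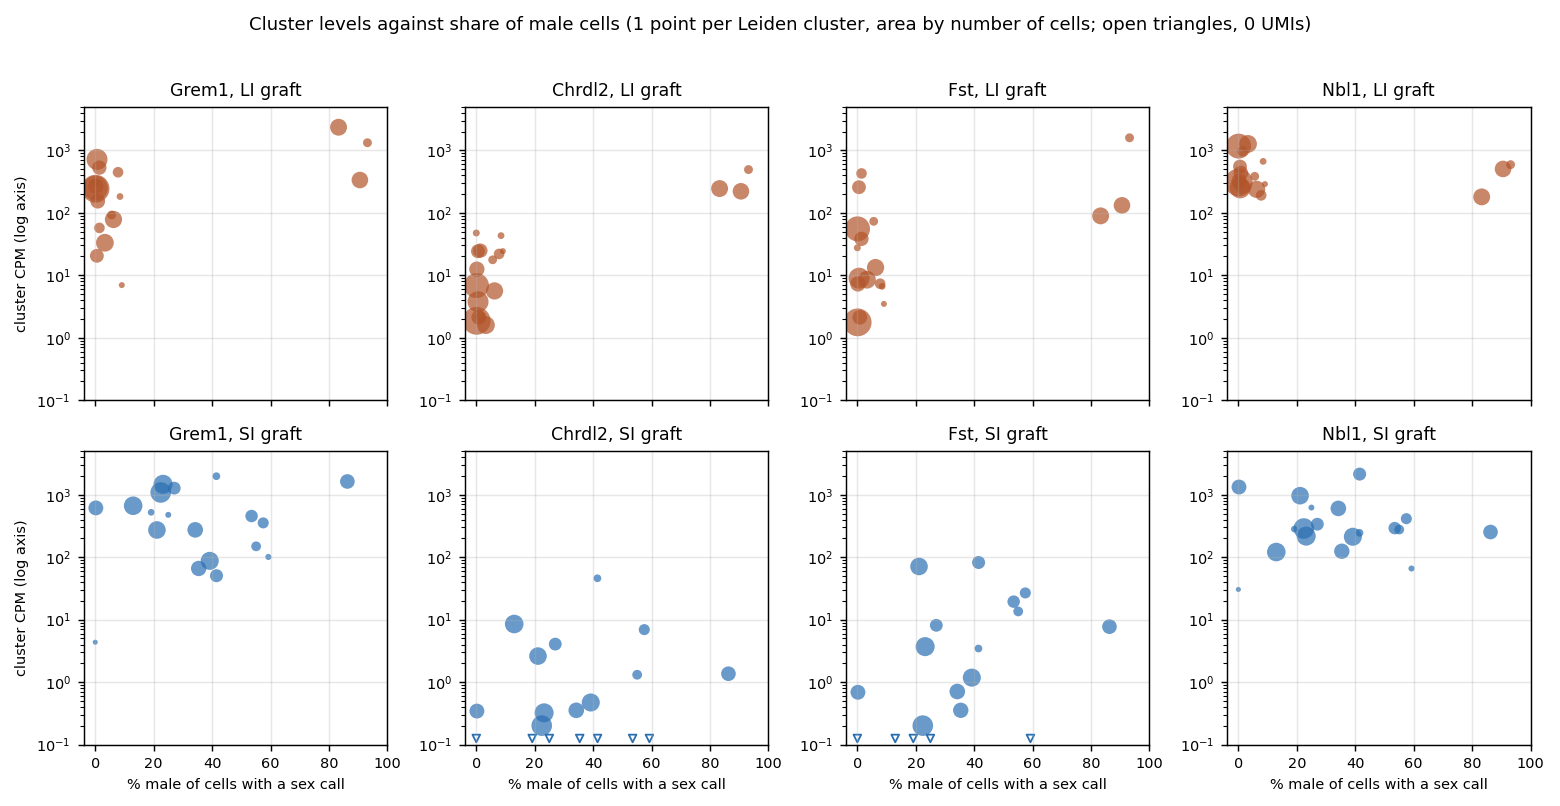
Level of Grem1, Chrdl2, Fst and Nbl1 in each cluster (CPM, log axis) against the percentage of male cells among cells with a sex call, LI graft above and SI graft below; point area follows the number of cells and open triangles mark clusters with no UMI. The 3 male-rich LI clusters had 221 to 493 CPM of Chrdl2, above every other cluster of either graft.

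More than 1 antagonist was commonly detected in a fibroblast. At 2000 UMIs per cell (6989 LI and 5244 SI fibroblasts deep enough), 92.7% of LI and 95.7% of SI fibroblasts had at least 1 antagonist detected. At least 2 were detected in 58.9% (57.8 to 60.1) of LI and 66.0% (64.7 to 67.3) of SI fibroblasts, and in 81.4% and 87.6% without thinning. The same share was 40.8% of LI and 58.7% of SI cells gated as immune, also at 2000 UMIs. It was 35.7% of 14 LI and 25.5% of 47 SI cells gated as epithelial. Unthinned medians were 5570.0 and 7154 UMIs in immune and 6590.5 and 9729 in epithelial cells. Fibroblast markers had medians of 320 (LI) and 381 (SI) UMIs per 10000 in these immune cells and 360 in LI epithelial cells. They had 368 and 487 in fibroblasts and 2.55 in SI epithelial cells. Most of these groups were thus no clean measure of background, and none was subtracted from the fibroblast shares. Among fibroblasts, independent detection of each gene within its class would give 58.9% and 64.8%. At least 3 were detected in 17.9% and 18.2%, against 18.8% and 20.3% under independence. The most frequent pair was Fstl1 with Nbl1, found together in 36.9% of LI and 37.0% of SI fibroblasts at 0.99 and 1.01 times the independent number. Grem1 with Fstl1 was nearly as frequent in the SI graft, in 36.4%, and was found in 21.4% of LI fibroblasts. SMC and LI pericytes exceeded independence at the upper end. At least 4 antagonists were detected in 4.41% of LI and 4.03% of SI SMC, against 1.81% and 1.34% expected. In LI pericytes the share was 2.11% against 0.548% expected. That class was taken by the gate, and 75 of its 657 cells sat in the cluster led by Areg and Ereg.

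Over all fibroblasts, Grem1 and Nbl1 were found together less often than independence within classes would give. In the LI graft 24.0% of Nbl1-positive and 33.7% of Nbl1-negative fibroblasts had Grem1, and in the SI graft 39.2% and 56.5% did, for ratios of observed to expected cells of 0.86 and 0.87. Within PDGFRAhi FB the ratios were 0.75, within counting error, and 0.51. SI SMC went the other way, at 1.29 (131 cells observed, 101 expected), LI SMC were within counting error at 1.12, and LI Fgfr2 FB had 56 cells where 55.9 were expected. Grem1 and Fst were also found together less often over fibroblasts, at 0.74 (78 cells observed, 106 expected) and 0.57 (22 and 38.3). They were found together more often in LI pericytes (11 cells where 2.60 were expected) and LI SMC (15 and 7.81). The LI pericyte count was by the gate, which also took in cells of the cluster led by Areg and Ereg. These ratios describe cells of 1 library each and carry no test.

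Other pairs exceeded independence. Fst and Bmper were detected together in 49 LI fibroblasts where 16.7 were expected, a ratio of 2.94, and 21.0% of Bmper-positive cells had Fst. Chrdl2 went with Grem1 (1.78), Bmper (1.71) and Fst (1.70) in the LI graft, where 59.9% of Chrdl2-positive and 26.9% of Chrdl2-negative fibroblasts had Grem1. By contrast, 0 of 6989 LI fibroblasts had both chordin-like genes, which allows a share of up to 0.0429%, where 8.81 cells were expected. Expected numbers were taken within gated classes and not within clusters. The 3 male-rich LI clusters held 88.0% of the Chrdl2 and 54.0% of the Grem1 UMIs but 8.22% of the Chrdl1 UMIs. Whether these pairs depart from independence within clusters was not tested. Grem1 and Chrdl1 exceeded independence in LI fibroblasts, at 1.53 (74 cells observed, 48.2 expected), while the SI value of 1.22 (33 and 27.1) was within counting error, and in SMC of both grafts, at 2.27 and 1.91. The SI graft had too few Chrdl2 and Bmper cells for most of these pairs.

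**Figure D5:**
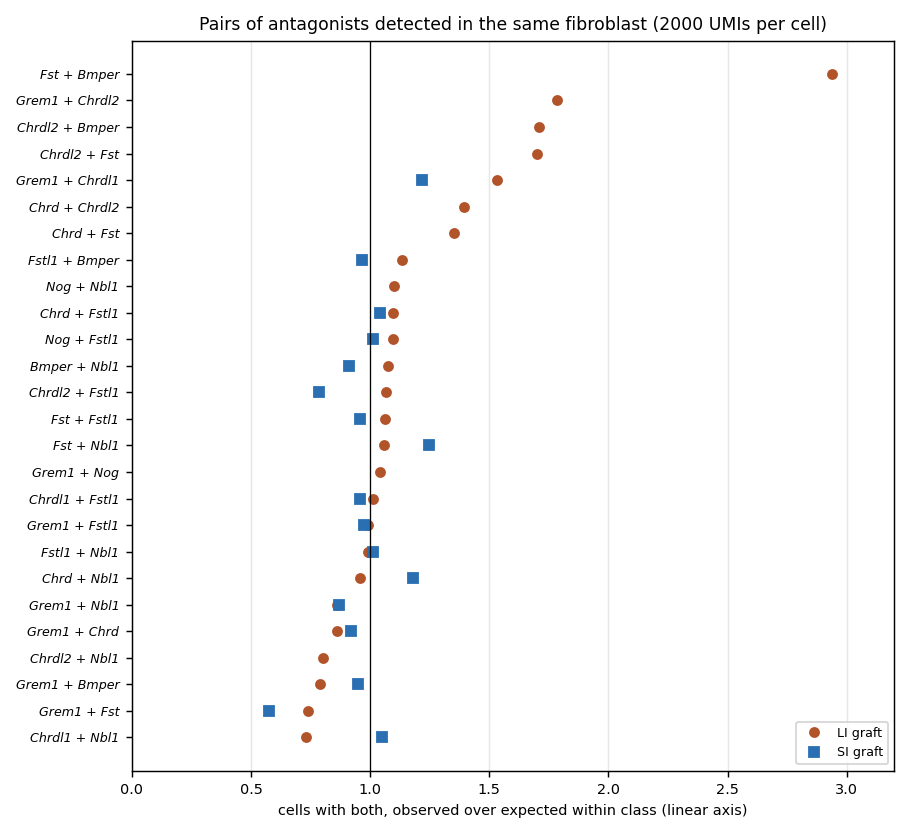
Number of fibroblasts with both antagonists of a pair, observed over expected from independent detection within each class, at 2000 UMIs per cell, for pairs with at least 10 expected cells in the LI graft (brown circles) and, where also reached, in the SI graft (blue squares). Fst with Bmper lay at 2.94 and Grem1 with Chrdl2 at 1.78, while Grem1 with Nbl1 (0.86 and 0.87) and Grem1 with Fst lay under 1 in both grafts.

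Antagonists and ligands were paired unevenly in single fibroblasts as well. Grem1 was detected in 8.31% of Bmp7-positive and 29.7% of Bmp7-negative LI fibroblasts, and in 10.8% and 50.8% of SI fibroblasts, 0.52 and 0.37 times the number expected within classes. Nbl1 showed the reverse with Bmp7, at 1.20 and 1.32, and was detected in 74.4% and 84.8% of Bmp7-positive cells. Grem1 with Bmp4 was near independence, at 1.04 and 1.06. Fst and Inhba, the subunit of its main ligand activin A, were detected together in 3.22 times the expected number of LI and 0.33 times that of SI fibroblasts (43 and 2 cells). Fst with Bmp4 stood at 0.28 in the LI and 0.78 in the SI graft.

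Genes were ranked by the Pearson correlation of log2(CPM + 1) with each of 8 antagonists over 18 points, 9 classes in each of 2 libraries, and Chrdl2 was not ranked. The points share libraries and the number of candidates was 9646, so the values are descriptions. Class levels were by the gate. They included Grem1 in LI pericytes and Nog, Chrdl1 and Fst in SI ICC, which were lower where gate and cluster agreed. Grem1 was closest to Tgfb3 (r = 0.857), Fmn1 (r = 0.839) and Pabpc4 (r = 0.786). Fmn1 is the neighbour of Grem1 on chromosome 2: it ends 29397 bases from Grem1 on the opposite strand, with no annotated gene between them. Nbl1 was closest to Hpcal1 (r = 0.895), Scap (r = 0.869) and Thbd (r = 0.858), and Chrd to Sertad4 (r = 0.900), Hpcal1 (r = 0.889) and Lrp10 (r = 0.885). Fst was closest to Pgm2 (r = 0.878), Higd1a (r = 0.876) and Mtmr11 (r = 0.871), Fstl1 to Prr13 (r = 0.923), Ggct (r = 0.920) and Fbln2 (r = 0.918) and Bmper to Slc39a14 (r = 0.868), Ctla2a (r = 0.865) and 1500015O10Rik (r = 0.860). For the sparser Nog and Chrdl1 they were Hist1h1c (r = 0.849), Entpd1 (r = 0.837) and Arl4d (r = 0.820), and Clcn3 (r = 0.832), Higd2a (r = 0.812) and Setd6 (r = 0.794). Among the antagonists themselves the largest coefficients were Chrd with Nbl1 (0.825) and Nog with Chrdl1 (0.774), and Grem1 with Nbl1 was the lowest (-0.447).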

How the data were processed

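The authors deposited UMI counts per gene and cell barcode for 1 LI and 1 SI graft library, raw whole numbers with no normalization. The submitters' processing notes name Cell Ranger 3.1.0, Seurat 3 and the mm10 genome, and the annotation release, counting strand and the limits of the study's filter on genes, reads and mitochondrial share were not given in the sources used here. Libraries held 63348069 (LI) and 54918006 (SI) UMIs. Barcodes with under 500 genes or over 10% mitochondrial UMIs were left out.

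The antagonists and all gene and marker lists were chosen with earlier results of these data known. Per library, log counts per 10000 were scaled per gene (cap 3) and averaged over each class's markers. A cell outside the fibroblasts needed a score of 0.5, 2 markers detected and a lead of 0.25. Of the rest, cells with 3 fibroblast markers were fibroblasts, split by the same limits, and a cell within 0.1 of a score limit or 0.05 of a lead limit was counted as near it. Levels were pooled UMIs per 1000000 (CPM), with exact Poisson intervals, exact Clopper-Pearson intervals for shares, and exact binomial intervals for log2 ratios with 1 CPM added (confidence 95%). A level or share of 0 was given a limit of 3 counts. CPM is not scaled to gene length, so levels were compared within genes. For co-detection, each cell was thinned to 2000 UMIs, which left out 727 LI and 537 SI cells.

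Clusters (scanpy 1.11.5, 30 principal components, 20 neighbours, resolution 0.8) were drawn without antagonists, pathway, mitochondrial or sex-linked genes. Scrublet's own threshold marked 0 LI and 1 SI barcode, too few to have worked, so doublets were kept, and removal of the top 9.25% and 7.70% of scores was an alternative. Named genes were all antagonists, the 3 genes of highest Pearson r with each, and up to 4 genes per pathway list called the same way in both libraries in a class. Pathway genes outside this rule (Bmp4 in PDGFRAhi FB, Rgmb) and the clusters singled out were chosen after their values were seen. The result of 1 listed modulator is not reported here. The fold count recovered 200 of 200 changed genes in simulated data. The planted changes were larger than the fold limit, with counting noise only and about the depth of all fibroblasts pooled. That recovery therefore does not bear on smaller classes or on the spread between grafts. Coordinates are GENCODE vM21 (GRCm38), which held 98.8% of the feature identifiers. TMM factors came from edgeR 4.0.16.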

Additional observations from a re-analysis of the deposited data

Results flagged for a closer look

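Several class differences had opposite signs in the grafts, each with an interval that left out 0 in both libraries. The difference between the grafts itself was not tested, since there was 1 library of each. Log2 ratios of a class over all other gated stromal cells are given for the LI and then the SI graft.

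For Grem1, pericytes had 0.27 and -2.89 and CD90/Igfbp5 FB 0.73 and -0.23. The positive LI pericyte value was not seen in the cells that the pericyte cluster also held. For Nbl1, CD90/Igfbp5 FB had -0.75 and 0.26, Fgfr2 FB -0.54 and 0.15 and other FB 0.038 and -0.23. For Fst, PDGFRAhi FB had -1.60 and 1.45. Signs were also opposite for Chrdl1 in CD81 FB, with 0.65 and -0.60, Bmper in SMC, with -0.65 and 0.53, and Fstl1 in CD81 FB, with 0.075 and -0.11.

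The LI over SI log2 ratio had opposite signs in the sexes for Grem1, at -1.51 in female and 0.43 in male fibroblasts, and for Chrd, at -0.41 and 0.60. These differences were not tested either.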

How the results depend on the processing

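The count of antagonists higher in the LI graft, at any size of difference, stayed between 4 and 7. The count with the same highest class in both grafts was 4 with a looser gate and 2 or 3 otherwise. The share of fibroblasts with at least 2 antagonists depended on depth: at 1000 UMIs per cell it was 32.8% (LI) and 38.4% (SI), and without thinning 81.4% and 87.6%. For the LI and SI graft it was with doublet scores removed 57.7% and 66.0%, where gate and cluster agreed 53.8% and 63.3%, in female cells 56.2% and 67.3% and in male cells 77.7% and 65.0%. The last 3 settings (cells whose gate and cluster agreed, female cells and male cells) were chosen after seeing the data.

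Over fibroblasts, 71 of 72 LI over SI ratios from settings listed in advance kept their direction, as did 94 of 97 class ratios, but 15 and 47 of these left their counting interval. Of those from settings added later, 16 of 24 and 28 of 41 did so, and 4 and 3 turned. In male cells the ratio turned for Grem1 (0.43), Chrd (0.60) and Chrdl1 (-0.35, with an interval from -0.95 to 0.25). Nbl1, unresolved over all fibroblasts, was -0.093 in female and -0.10 in male cells. The ratio also turned for Fstl1, near 0, with mean per-cell CPM (-0.10) and where gate and cluster agreed (-0.086). Grem1 in LI pericytes turned with a stricter gate (-0.46), by clusters (-2.58), where both agreed (-2.56) and in female cells (-1.59). Fst in SI ICC turned by clusters (-4.04) and where both agreed (-3.55). The cause was not tested. No paired analysis was possible because each group had 1 library. Nog, Chrdl2 in the SI graft and the mesothelial class were limited by their few UMIs or cells.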
